A study of Mus musculus with 6 samples.

Results

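The 10 imprinted genes described here are H19, Igf2, Dlk1, Meg3, Rian, Mirg, Peg3, Plagl1, Cdkn1c and Grb10, found by exact gene symbol among the 55353 genes listed for each library. Total RNA of whole mouse testis at postnatal day 14 was sequenced for 3 control animals and 3 animals of the genotype Rnu11 cKO, a conditional deletion (mutants from here on). Rnu11 is the gene of U11, a noncoding RNA that recognises the few introns handled by the minor spliceosome. Neither the cells in which Rnu11 was deleted nor the Cre line and the genetic background of the controls are given in the sources used here. Values are TPM, a relative level corrected for transcript length, so genes can be compared with each other. The sequencing depth is unknown, since TPM does not retain it.

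An imprinted gene is transcribed mainly from the copy inherited from 1 parent, because a control region differs in methylation between the parental copies. Many genes of this kind act on growth before and shortly after birth: paternally expressed Igf2 and Dlk1 encode growth factors or related secreted and membrane proteins, and maternally expressed Cdkn1c and Grb10 restrain cell division and growth factor signalling. H19, Meg3, Rian and Mirg are maternally expressed noncoding RNAs that carry small RNAs within them, and Peg3 and Plagl1 are paternally expressed zinc finger proteins. In the testis these genes are known mainly from somatic cells, and their levels fall in most organs as an animal grows up. The values used here do not separate the parental alleles, so no statement on imprinting itself can be drawn from them.

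On GRCm38, 4 of the genes lie on chromosome 7. H19 is at chr7:142575529-142578143 and Igf2 at chr7:142650766-142666816, both on the minus strand and neighbours in the same domain, while Cdkn1c (chr7:143458339-143461050, minus strand) and Peg3 (chr7:6703892-6730431, minus strand) lie apart from them. Dlk1 (chr12:109452823-109463336), Meg3 (chr12:109541001-109571726), Rian (chr12:109603940-109661716) and Mirg (chr12:109729764-109749460) follow each other on the plus strand of chromosome 12. Plagl1 is at chr10:13060504-13131694 on the plus strand and Grb10 at chr11:11930508-12038683 on the minus strand.

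RefSeq (GRCm38.p6) places 39 mature miRNAs of 21 hairpins inside these genes, 26 of them in Mirg, 6 in Rian, 3 in Meg3, 2 in H19 and 2 in Igf2. They have 38 different seeds, the bases 2 to 8 that pair with a target. The sequences below show what the 4 noncoding genes carry, with at least 1 miRNA from each and both miRNAs of the only seed that occurs more than once. Capitals mark the seed.
miR-675-5p (H19, chr7:142577112-142577133, minus strand): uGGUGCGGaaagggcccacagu
miR-675-3p (H19, chr7:142577078-142577099, minus strand): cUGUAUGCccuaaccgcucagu
miR-770-5p (Meg3, chr12:109563710-109563731, plus strand): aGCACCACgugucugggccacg
miR-370-3p (Rian, chr12:109618305-109618326, plus strand): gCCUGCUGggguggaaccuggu
miR-453 (Mirg, chr12:109735669-109735692, plus strand): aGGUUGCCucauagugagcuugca
miR-496a-5p (Mirg, chr12:109739132-109739152, plus strand): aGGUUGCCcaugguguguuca
miR-410-3p (Mirg, chr12:109743764-109743784, plus strand): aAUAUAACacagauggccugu
miR-453 and miR-496a-5p share the seed GGUUGCC. The genes of the small RNAs themselves were nearly all listed at 0. Of 94 annotated small RNA entries between Dlk1 and Dio3, 67 of them miRNA genes and 23 snoRNA genes, 93 were listed at 0 TPM in every library. The remaining entry, Gm27528, reached at most 0.686 TPM and shares its symbol with a longer overlapping gene. Mir675 and Mir483, the miRNA genes within H19 and Igf2, were also listed at 0 throughout. What follows on H19, Meg3, Rian and Mirg is therefore about the long host transcripts.

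The targeted gene, Rnu11, was at 614, 576 and 550.3 TPM in controls 1 to 3 and at 196, 393 and 203 TPM in mutants 1 to 3. The groups did not overlap, and RNA of the gene remained in every mutant, most in mutant 2. The libraries listed 30113 to 34510 genes above 0. Nuclear protein-coding genes made up 25.3% to 31.0% of all TPM, most in mutant 2, and Rn7s2 alone 26.9% to 30.5%, so 2 other scalings were run beside the deposited TPM. Of 17959 genes tested with limma, 5 passed an adjusted p of 0.05 (Gm22042, Gm22300, Gm25556 and Gm44349 lower and Gm7432 higher in mutants), which is 0.0278%. Unadjusted p-values under 0.05 were found for 16.1% of genes, 12.1% with a higher and 3.98% with a lower level in mutants. Each library is taken as 1 animal. The limma p-values set a difference against the spread between these animals only, a spread that limma moderates over all genes tested.

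All 10 imprinted genes had a higher mean on the log2(TPM + 1) scale in mutants than in controls, against 66.4% of all genes tested. None of the 10 passed the limma test at an adjusted p of 0.05, for which the background is 0.0278%, and none had an unadjusted p under 0.05, for which it is 16.1%. In Dlk1, Meg3 and Mirg every mutant was above every control, 3 of 10 genes against 14.5% of all genes tested. The median difference of the 10 genes was 0.27 on the log2 scale and that of all genes 0.09. In bulk tissue, a higher share of cells that express a gene and more RNA per cell cannot be told apart.

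The secreted and membrane proteins come first. Igf2, the fetal growth factor that signals through the IGF1 and insulin receptors, was at 28.8, 42.6 and 35.5 TPM in controls 1 to 3 and at 42.2, 52.2 and 35.4 TPM in mutants 1 to 3. Mutant 2 was the highest and control 1 the lowest library, and mutant 3 lay between controls, so the groups overlapped. The difference was 0.27 (SE 0.19, 95% interval -0.17 to 0.71, limma adjusted p = 0.46), and 0.13 without either mutant 2 or control 1. Dlk1, a Notch-related protein of progenitor cells that is shed from the membrane, was at 30.7, 33.5 and 33.0 TPM in controls and at 33.7, 58.4 and 36.5 TPM in mutants. Controls were close together, with an SD of 1.48 TPM, and mutants were all above them, but mutant 1 cleared the highest control narrowly and mutant 2 stood well above the rest. The difference of 0.35 (SE 0.20, 95% interval -0.12 to 0.82, limma adjusted p = 0.39) fell to 0.11 without mutant 2.

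Among the noncoding RNAs, H19, which neighbours Igf2 and contains miR-675, was at 23.8, 45.0 and 31.8 TPM in controls and at 39.2, 46.2 and 29.4 TPM in mutants. Its groups overlapped almost fully, since control 2 nearly equalled the highest mutant and mutant 3 was below 2 of the controls. The difference was 0.21 (SE 0.25, 95% interval -0.39 to 0.80, limma adjusted p = 0.67), and it was -0.01 without control 1, 0.06 without mutant 2, 0.38 without mutant 3 and 0.44 without control 2. Meg3, the most abundant of the 10 in controls, was at 40.6, 41.8 and 44.24 TPM in controls and at 47.9, 62.0 and 44.27 TPM in mutants. Mutant 3 and control 3 were nearly equal, so the separation of the groups rests on a gap within the rounding of most values given here. The difference was 0.26 (SE 0.14, 95% interval -0.06 to 0.58, limma adjusted p = 0.35) and 0.12 without mutant 2.

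Rian, a host of snoRNAs and miRNAs, was at 19.9, 23.6 and 18.2 TPM in controls and at 24.6, 33.7 and 22.8 TPM in mutants. Mutants 1 and 2 were above every control and mutant 3 was just under control 2. Rian differed by 0.37 (SE 0.17, 95% interval -0.03 to 0.76, limma adjusted p = 0.32), and by 0.20 without mutant 2. Mirg, the host of a large miRNA cluster, was the least abundant of the 10, at 2.23, 2.85 and 2.63 TPM in controls and 3.30, 3.54 and 3.05 TPM in mutants. All mutants were above all controls, by the clearest margin among the 3 genes without overlap relative to the spread in each group. Its difference of 0.27 (SE 0.12, 95% interval -0.01 to 0.55, limma adjusted p = 0.32) is on a scale that understates changes at such low levels, and it ranged from 0.20 to 0.32 with any library left out.

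Of the zinc finger proteins, Peg3, a DNA-binding regulator with roles in growth and maternal care, was at 28.9, 38.4 and 30.7 TPM in controls and at 43.7, 55.0 and 35.0 TPM in mutants. Mutants 1 and 2 were above all controls, and mutant 3 was below control 2. Peg3 had the largest difference of the 10, 0.42 (SE 0.18, 95% interval -0.01 to 0.86, limma adjusted p = 0.31), and it lay between 0.26 (without mutant 2) and 0.58 (without mutant 3) with any library left out. Plagl1, a transcription factor that acts on other imprinted genes, was at 7.19, 12.2 and 7.34 TPM in controls and at 10.9, 16.1 and 8.66 TPM in mutants. Replicate 2 was the highest library of each group, and control 2 was above mutants 1 and 3. The difference was 0.37 (SE 0.26, 95% interval -0.25 to 1.00, limma adjusted p = 0.47), with 0.15 without mutant 2, 0.60 without control 2 and 0.56 without mutant 3.

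The growth restrainers differed least, together with H19. Cdkn1c, an inhibitor of cyclin-dependent kinases, was at 4.85, 6.72 and 5.93 TPM in controls and at 6.80, 7.08 and 6.60 TPM in mutants. The mutants were alike, with an SD of 0.24 TPM, and control 2 was within their range. The difference was 0.20 (SE 0.12, 95% interval -0.09 to 0.49, limma adjusted p = 0.41), and 0.10 without control 1. Grb10, an adaptor that damps insulin and IGF1 receptor signalling, was at 18.4, 23.2 and 18.7 TPM in controls and at 26.0, 25.3 and 19.3 TPM in mutants. It was the only gene of the 10 whose highest library was mutant 1, and control 2 was above mutant 3. The difference was 0.21 (SE 0.15, 95% interval -0.14 to 0.56, limma adjusted p = 0.46), with 0.14 without mutant 1 and 0.34 without mutant 3.

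**Figure D1:**
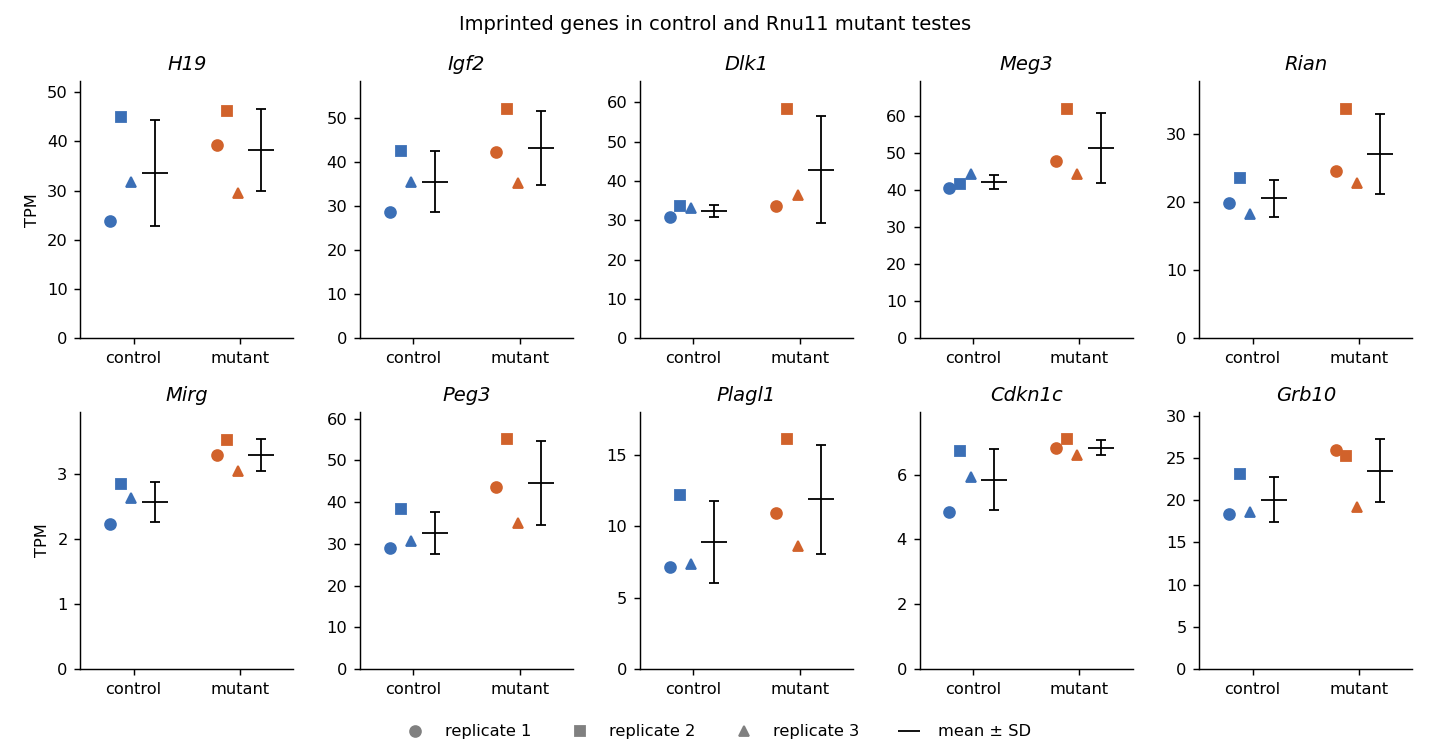
TPM of each of the 10 imprinted genes (y axes, linear from 0) in 3 control and 3 mutant testes. Points are libraries, with a marker shape for each replicate number, and bars are the mean ± SD (n = 3); only Dlk1, Meg3 and Mirg have every mutant above every control.

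Ordered by the control mean, the levels ran from Meg3 (42.2 ± 1.87 TPM, SD, n = 3) through Igf2 (35.6 ± 6.91), H19 (33.5 ± 10.7), Peg3 (32.7 ± 5.05) and Dlk1 (32.4 ± 1.48) to Rian (20.6 ± 2.73), Grb10 (20.1 ± 2.68), Plagl1 (8.92 ± 2.87), Cdkn1c (5.84 ± 0.94) and Mirg (2.57 ± 0.31). Among the first 5, neighbours differed by less than the larger of their SDs, and so did Rian and Grb10. The steps from Dlk1 to Rian, 11.9 TPM, and from Grb10 to Plagl1, 11.2 TPM, were larger than either SD. The steps from Plagl1 to Cdkn1c and on to Mirg also exceeded the larger SD, the former narrowly. In mutants the means were 51.4 ± 9.37 TPM for Meg3, 44.6 ± 10.02 for Peg3, 43.3 ± 8.46 for Igf2, 42.9 ± 13.5 for Dlk1 and 38.3 ± 8.39 for H19, again within 1 SD of their neighbours. Spread between replicates was not alike among the genes: in controls the coefficient of variation was 4.43% for Meg3 and 4.56% for Dlk1 but 31.9% for H19 and 32.1% for Plagl1.

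The 10 genes were highest and lowest in nearly the same libraries. Mutant 2 was the highest library for 9 of the 10, while 41.5% of all genes tested were highest there. Control 1 was the lowest for 9 of the 10, against 29.6% of genes, with Rian lowest in control 3. Averaged over the 10 genes, the distance from the control mean was -0.17, 0.21 and -0.04 on the log2 scale in controls 1 to 3 and 0.26, 0.56 and 0.07 in mutants 1 to 3. Control 2 was thus close to mutant 1 and above mutant 3. The summed level of the 10 genes was 205, 270 and 228 TPM in controls and 278, 359 and 241 TPM in mutants, where mutant 3 was below control 2.

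Without control 2, every mutant was above every control in 8 of the 10 genes and in 29.8% of all genes tested, and without mutant 3 in 7 of 10 and in 37.7%. Leaving out any of the other 4 libraries left the count at 3 of 10, against 18.5% and 18.4% of all genes without controls 1 and 3 and 17.8% and 16.3% without mutants 1 and 2. Groups with a library fewer separate more easily by construction. The median difference of the 10 genes was 0.15 without mutant 2 and 0.39 without either control 2 or mutant 3. Without replicate 2 of both groups, an alternative chosen after seeing the data, the median of the 10 genes was 0.28 and that of all genes 0.08. All 10 genes were then higher in mutants, and 8 had no overlap, against 32.1% of all genes tested; Dlk1 was at 0.13 and Meg3 at 0.12. The highest and lowest adjusted p of any of the 10 genes under all alternatives were 0.99 and 0.16.

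**Figure D2:**
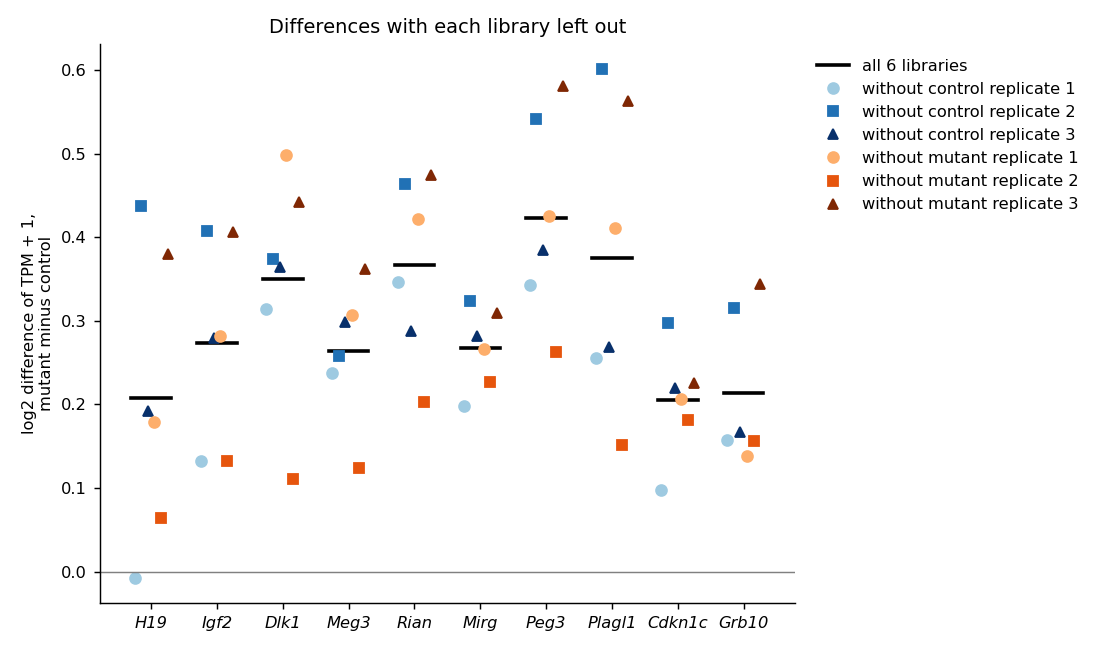
Log2 difference of TPM + 1, mutant minus control (y axis), for each imprinted gene with all 6 libraries (black lines) and with each library left out in turn (points). Leaving out mutant 2 lowers every gene and leaving out control 2 raises every gene except Meg3; H19 crosses 0 without control 1.

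Scaling changed the size of the differences and the overlap, not their sign. With median-ratio scaling over genes above 0 in all 6 libraries, the median of all genes went from 0.09 to 0.00 and that of the 10 imprinted genes from 0.27 to 0.18. With scaling to the summed TPM of nuclear protein-coding genes they were -0.02 and 0.15. All 10 genes stayed above 0 and above the median of all genes under both, and the distance between the medians was 0.18 for deposited TPM and 0.17 for each scaling. Every mutant was above every control in 1 of the 10 genes under either scaling, against 11.3% of all genes tested with median-ratio and 9.48% with protein-coding scaling. The smallest differences with protein-coding scaling were 0.07 for H19, 0.08 for Grb10 and 0.08 for Cdkn1c. The authors' deposited table gives log2 fold changes in 2 columns. In the column named Confident log2 FC all 10 genes had positive values, from 0.02 for H19 to 0.51 for Peg3, and so did 60.3% of the genes tested here. In the column named Single run log2 FC the values of the 10 genes ran from 0.19 for H19 to 0.45 for Peg3.

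**Figure D3:**
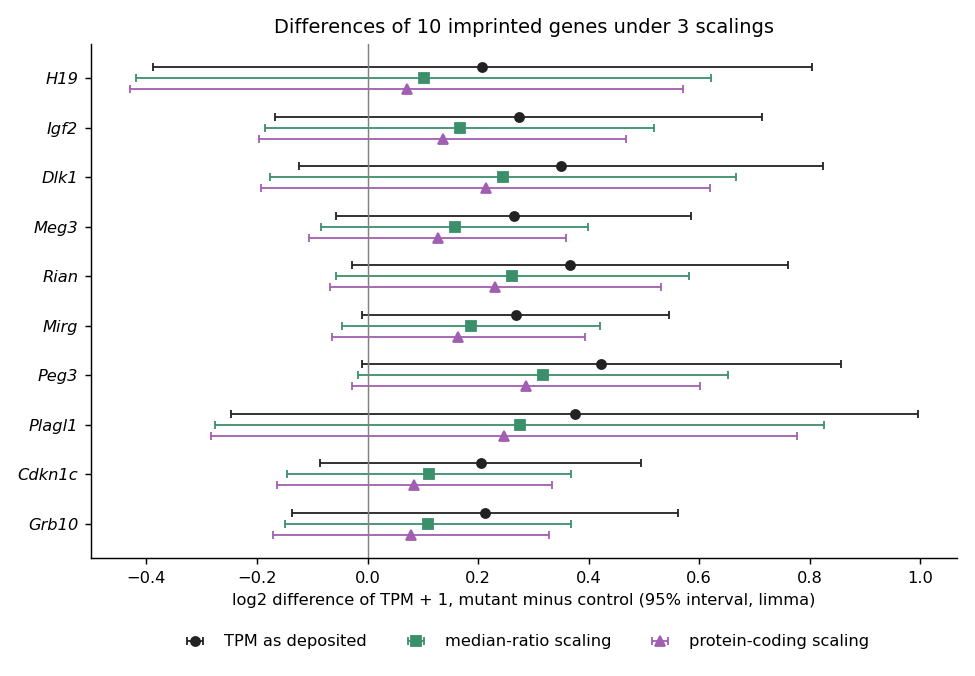
Log2 difference of TPM + 1, mutant minus control (x axis), with its 95% interval from limma for the 10 imprinted genes under 3 scalings of the libraries. All point estimates are above 0 and every interval includes 0.

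Markers of testis cell types were read beside the 10 genes, and none of these marker genes passed the limma test at an adjusted p of 0.05. For comparison, 66.4% of all genes tested had a higher mean in mutants. Markers of steroid-forming Leydig cells were higher in mutants in 10 of 10 cases, with a median of 0.88 on the log2 scale and a summed level of 179 to 304 TPM in controls and 311 to 478 TPM in mutants. Among them, Star, which carries cholesterol into mitochondria, was at 5.24, 12.05 and 4.49 TPM in the controls, against 14.1, 29.4 and 17.6 TPM in the mutants. Every mutant was above every control for Star, as for 5 of the 10 Leydig markers in all, 8 of the 15 Sertoli markers and 14.5% of all genes tested. Control 2 was the highest control and mutant 2 the highest mutant, as for Plagl1 and Peg3. Markers of Sertoli cells, the supporting cells of the seminiferous tubule, were higher for 14 of 15 genes (median 0.46; summed level 1801 to 2069 TPM in controls and 2487 to 3187 TPM in mutants).

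The summed levels of the groups overlapped for the remaining somatic lists. Macrophage markers were higher for 8 of 8 genes (median 0.46; 38.8 to 58.6 TPM in controls and 55.7 to 78.7 TPM in mutants). Interstitial progenitor and stromal markers, a list that holds the imprinted gene Dcn, were higher for 9 of 11 genes (median 0.29; 326 to 383 TPM and 377 to 515 TPM). Markers of peritubular myoid cells were higher for 4 of 6 genes (median 0.16; 171 to 238 TPM and 205 to 247 TPM) and those of endothelial cells for 6 of 7 (median 0.19; 26.3 to 32.8 TPM and 27.2 to 38.4 TPM). Every mutant was above every control for 2 of the 8 macrophage and 3 of the 11 stromal markers, against 14.5% of all genes tested. No myoid or endothelial marker separated in that way, and 1 stromal marker had every mutant below every control. The myoid count of 4 of 6 was near the share of all genes tested with a higher mean in mutants, 66.4%. Most germ cell markers went the other way: 10 of 12 were lower in mutants (median -0.44). Their summed level was 734 to 819 TPM in controls and 532 to 633 TPM in mutants. The 2 others, Gfra1 and Zbtb16, were higher in mutants, so the lower level did not hold for every germ cell marker. Every mutant was below every control for 9 of the 12 germ cell markers, against 5.77% of all genes tested. For 1 of the 12, every mutant was above every control. No marker of these 7 lists was listed at 0 in all libraries. Leydig, Sertoli, macrophage, stromal and endothelial markers all had replicate 2 as the highest library of each group, as the 10 genes had on average. Among the somatic lists only the myoid markers departed, being highest in control 3 among controls and in mutant 1 among mutants. The part of these cell types in the differences was not tested.

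**Figure D4:**
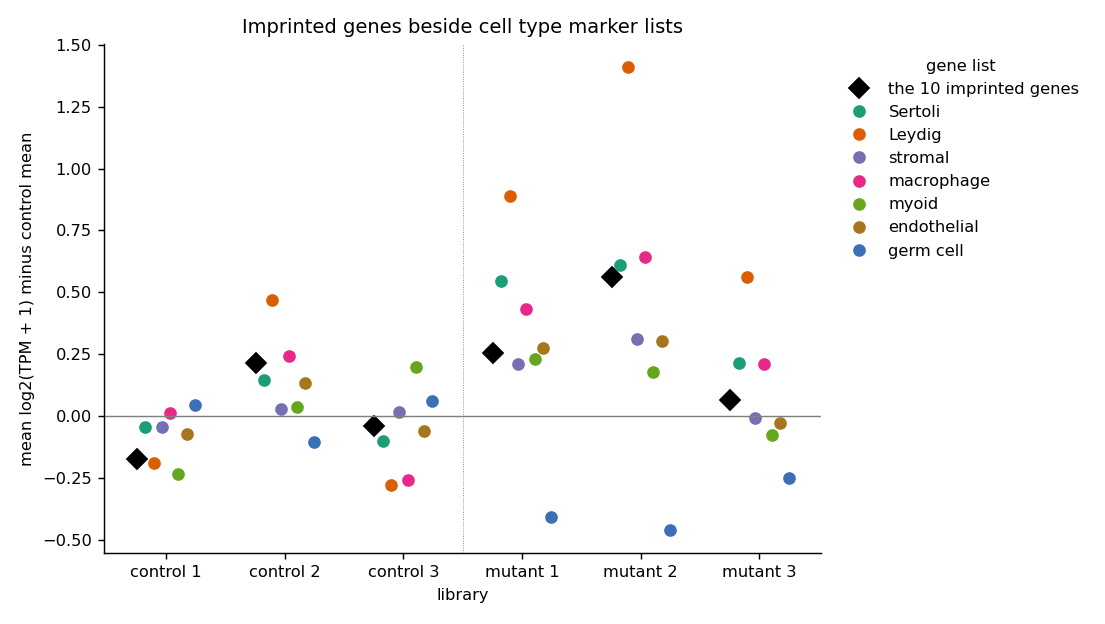
Mean log2(TPM + 1) of each gene list, minus its control mean (y axis), in each of the 6 libraries (x axis). The 10 imprinted genes (diamonds) are at 0.21 in control 2 and 0.56 in mutant 2; the Leydig cell markers are at 0.47 and 1.41 and the germ cell markers at -0.10 and -0.46 in the same libraries.

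Within a domain, the ratio of transcripts is free of the scaling of a library. H19 over Igf2 was 0.83, 1.06 and 0.90 in controls and 0.93, 0.88 and 0.83 in mutants, so neither gene dominated. The log2 ratio was -0.12 ± 0.18 in controls and -0.18 ± 0.08 in mutants (SD, n = 3; exact permutation test, p = 0.7). Meg3 over Dlk1 was 1.32, 1.25 and 1.34 in controls and 1.42, 1.06 and 1.21 in mutants, lowest in mutant 2 where Dlk1 was high. Its log2 ratio was 0.38 ± 0.05 and 0.29 ± 0.21 (SD, n = 3; exact permutation test, p = 0.6). Rian over Meg3 on the log2 scale was -1.04 ± 0.23 in controls and -0.93 ± 0.05 in mutants, and Mirg over Meg3 -3.99 ± 0.15 and -3.91 ± 0.16 (SD, n = 3; exact permutation test, p = 0.5 for each). The tests were two-sided, the 4 p-values became 0.7 each after Benjamini-Hochberg adjustment, and 3 libraries against 3 cannot give less than 0.1. H19 over Igf2 changed sign without control 2, Meg3 over Dlk1 without mutant 2 and Rian over Meg3 without control 3.

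Along chromosome 12, Meg3 starts 88.2 kb after Dlk1, Rian 151 kb and Mirg 277 kb after it. Dio3, which encodes an enzyme that inactivates thyroid hormone and closes the domain, was at 0.23 to 0.31 TPM in controls and 0.26 to 0.45 TPM in mutants, too low to be tested. Rtl1, a paternally expressed gene of retroviral origin opposite small RNAs of the maternal copy, was at 0.61 to 0.71 TPM in controls and 0.76 to 1.31 TPM in mutants, also below the 1 TPM minimum. The noncoding gene B830012L14Rik, which lies between Rian and Mirg, differed by 0.34 (limma adjusted p = 0.37) and was again highest in mutant 2, at 2.54 TPM. Dlk1, Meg3, Rian and Mirg thus made up 4 of the 6 genes of the domain that could be tested.

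Isoforms were read from the whole isoform table, in which 44197 isoforms were tested with limma. The 10 genes have 112 annotated isoforms, of which 31 were tested, 26 with a higher and 5 with a lower level in mutants (63.0% of all isoforms tested were higher). None passed an adjusted p of 0.05, against 0.0136% of all isoforms, and 2 had an unadjusted p under 0.05, against 11.2%. These were Dlk1-203, at 2.10, 2.33 and 3.56 TPM in controls and 2.96, 7.04 and 6.84 TPM in mutants (difference 0.80, limma adjusted p = 0.43), and Rian-210, at 1.79, 0.90 and 0.93 TPM in controls and 2.09, 2.34 and 2.16 TPM in mutants (0.56, limma adjusted p = 0.43). Of the pair, Rian-210 had every mutant above every control, as did 11.6% of all isoforms tested. Isoforms of Mirg were each below the minimum of 1 TPM.

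Most genes kept the same main isoform in both groups. Dlk1-205 made up 79.0% ± 5.89 of Dlk1 TPM in controls and 72.3% ± 5.78 in mutants (SD, n = 3), Peg3-201 77.3% ± 3.51 and 80.2% ± 0.19 of the matched Peg3 isoforms, and Plagl1-202 52.4% ± 1.67 and 54.5% ± 1.58. For H19, the shorter transcript H19-207, which starts within the longer H19-202, made up 30.3%, 53.3% and 52.2% in controls and 51.5%, 55.5% and 38.0% in mutants. H19-207 varied more than H19-202, from 7.22 TPM in control 1 to 25.6 TPM in mutant 2, while H19-202 stayed between 12.2 and 18.5 TPM. Meg3-204 and Meg3-205, with separate starts, made up 37.5% ± 3.59 and 31.3% ± 2.58 in controls and 38.2% ± 4.97 and 30.1% ± 3.01 in mutants.

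Shares were tested for 33 isoforms of the 10 genes, of which none passed an adjusted p of 0.05 (0.0112% of all shares) and 4 had an unadjusted p under 0.05 (5.78%). Grb10-201 made up 75.5%, 77.6% and 69.1% of Grb10 in controls and 80.5%, 85.1% and 78.9% in mutants, without overlap of the groups (limma adjusted p = 0.86). The other 3 were isoforms of Rian. Rian-208 was at 29.3% ± 1.87 in controls and 20.2% ± 4.94 in mutants, Rian-216 at 11.3% ± 3.97 and 4.12% ± 3.46, and Rian-206 at 2.56% ± 2.55 and 9.47% ± 4.77 (SD, n = 3; limma adjusted p = 0.86 for each). Isoforms matched to the annotation held 37.3% of the TPM of Rian and 90.9% of that of Peg3, against all of it for the other 8 genes, so the Rian shares describe the matched portion only. Cdkn1c-201 was at 67.1%, 62.4% and 93.8% in controls and 51.2%, 58.2% and 48.5% in mutants, lower in every mutant, with a limma adjusted p of 0.86.

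**Figure D5:**
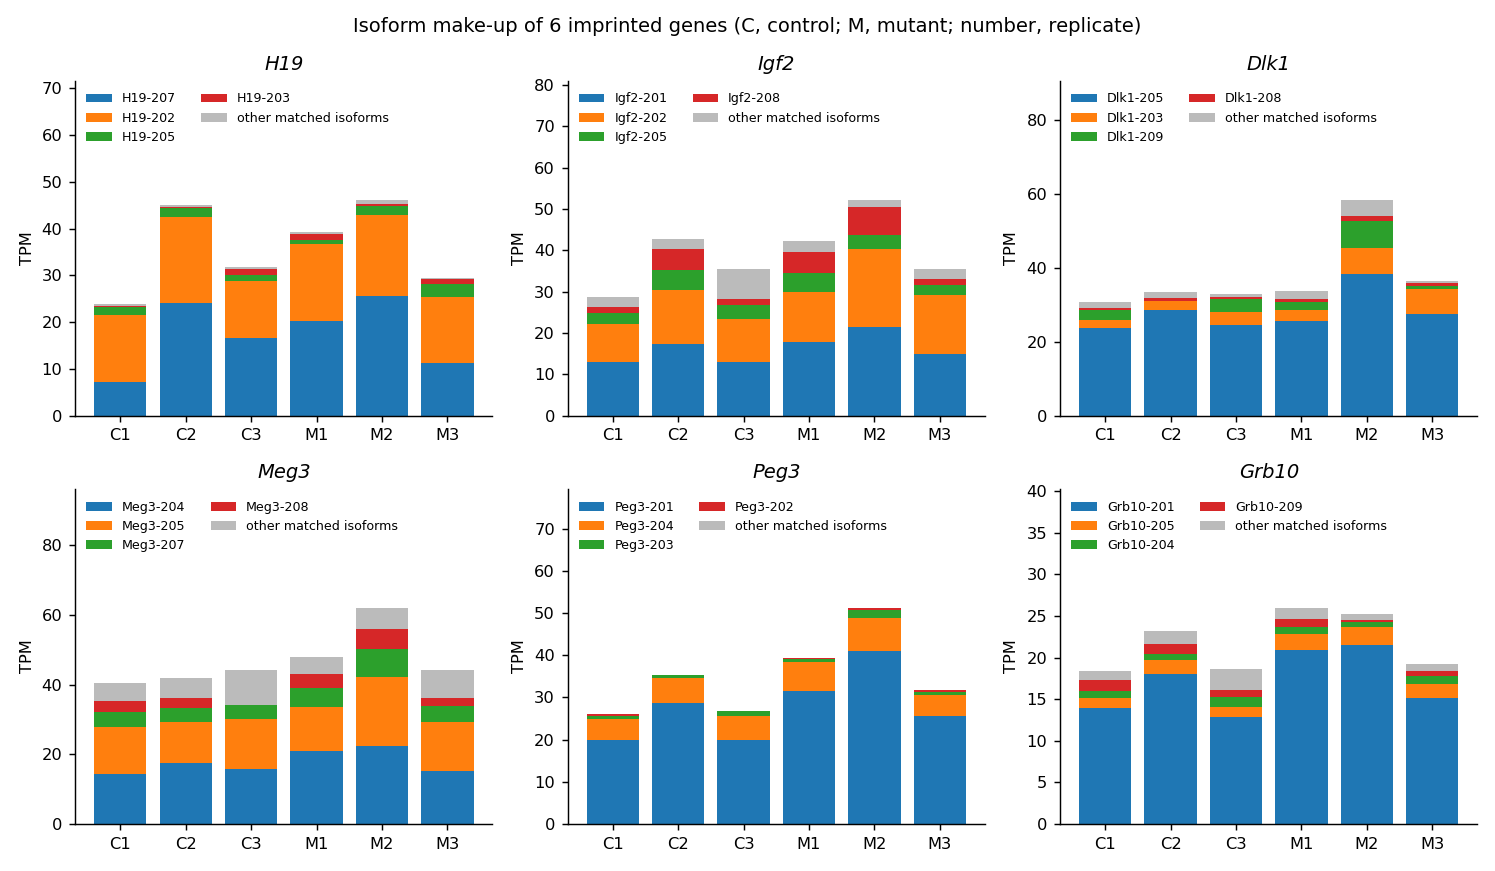
TPM of the 4 most abundant matched isoforms and the sum of the others (stacked bars from 0) for 6 of the imprinted genes in controls (C1 to C3) and mutants (M1 to M3). By group mean of TPM, the main isoform is the same in both groups for all 6 genes. By mean share of H19, H19-202 is first in controls (46.6% against 45.3% for H19-207) and H19-207 in mutants (48.4% against 42.8%). In H19 the part that differs most between libraries is H19-207, which is below H19-202 in C1 and M3.

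The isoforms were also read by where they start, using the RefSeq windows of 300 bases (GRCm38.p6; 250 before and 50 after a start site), of which 13 were found for 8 of the genes. In these libraries 1 window held most of the matched isoform TPM for Peg3, Plagl1, Igf2 and Grb10. It was 99.4% in controls and 99.0% in mutants for Peg3, 90.6% and 89.2% for Plagl1, 71.4% ± 5.47 and 76.8% ± 5.63 for Igf2 (SD, n = 3), and 74.1% ± 4.43 and 81.5% ± 3.24 for Grb10. A Meg3 window held 41.5% ± 3.29 and 41.6% ± 3.73. The windows of the other genes held little: 13.9% in controls and 13.6% in mutants for Rian, 5.09% and 11.2% for Mirg, and 0.50% and 0.60% for Dlk1. Most matched isoform TPM of Rian, Mirg and Dlk1 thus started outside these windows. The windows shown are those of Peg3 as the gene of the largest difference, of Igf2 as the start used among several, and of Grb10 as the start whose share differed most without overlap. Capitals mark a match to GGGGCCCC, a motif of PLAGL1, or to TGCCGC, a motif of ZFP57 (printed as GCGGCA where it is on the other strand).
Peg3 (chr7:6730370-6730669, minus strand): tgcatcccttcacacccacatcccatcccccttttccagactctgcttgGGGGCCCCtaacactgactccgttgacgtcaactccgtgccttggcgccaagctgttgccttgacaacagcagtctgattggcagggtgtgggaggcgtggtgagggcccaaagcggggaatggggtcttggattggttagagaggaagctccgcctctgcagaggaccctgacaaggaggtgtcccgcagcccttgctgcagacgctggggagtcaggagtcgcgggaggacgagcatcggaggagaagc
Igf2 (chr7:142657447-142657746, minus strand): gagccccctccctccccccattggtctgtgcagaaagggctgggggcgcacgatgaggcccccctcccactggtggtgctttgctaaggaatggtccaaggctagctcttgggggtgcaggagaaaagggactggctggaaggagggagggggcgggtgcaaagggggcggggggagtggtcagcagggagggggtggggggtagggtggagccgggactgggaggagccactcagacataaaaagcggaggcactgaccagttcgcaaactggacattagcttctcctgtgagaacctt
Grb10 (chr11:12037371-12037670, minus strand): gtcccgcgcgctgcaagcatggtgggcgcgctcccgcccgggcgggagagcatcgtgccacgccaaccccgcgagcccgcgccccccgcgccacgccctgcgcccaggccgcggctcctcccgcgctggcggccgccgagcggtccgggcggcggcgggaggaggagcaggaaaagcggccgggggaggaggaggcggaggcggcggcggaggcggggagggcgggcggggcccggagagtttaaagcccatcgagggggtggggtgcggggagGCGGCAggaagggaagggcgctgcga
The Peg3 window has GGGGCCCC at position -201 from the start site, the Grb10 window has the reverse complement of TGCCGC at position 25 and a GC content of 80.0%, and the Igf2 window has neither. On either strand, GGGGCCCC was found in 1 of the 13 windows and in 1.08% of all 32851 windows, and TGCCGC in 4 of 13 (another Igf2 window and windows of Plagl1, Grb10 and Meg3) and 11.6% of all. A long core motif of CTCF, and TCAAGGTCA of NR5A1, were in none of the 13 windows and in 0.0365% and 0.423% of all. The median GC content was 53.7% for the 13 windows and 52.7% for all. These are letters in a window and not measured sites.

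Other imprinted genes, listed without regard to growth, were also more often higher in mutants. Of 42 tested, 36 had a higher mean in mutants and 6 a lower one, and 66.4% of all genes tested were higher. The median difference was 0.19 on the log2 scale. No gene of this list passed an adjusted p of 0.05 (background 0.0278%), 11 had an unadjusted p under 0.05 in the higher direction (12.1% of all genes tested), and 9 of 42 had every mutant above every control (14.5% of all genes tested). The smallest p-values belonged to Qpct, an enzyme that modifies the ends of secreted peptides, with means of 24.0 ± 1.69 and 35.5 ± 6.16 TPM in controls and mutants (0.53), Ndn, a growth-suppressing protein of neurons (5.13 ± 0.43 and 7.73 ± 1.45 TPM, 0.50), Nnat (8.14 ± 0.88 and 11.3 ± 1.44 TPM, 0.43) and Pon2 (4.02 ± 0.96 and 6.08 ± 0.46 TPM, 0.51; SD, n = 3, limma adjusted p = 0.29 for each). Usp29, which neighbours Peg3 and is likewise paternally expressed, was at 1.21, 1.19 and 1.18 TPM in controls and 0.72, 1.02 and 0.93 TPM in mutants. Every mutant was below every control, as in 5.77% of all genes tested, in the direction opposite to Peg3 (-0.22, limma adjusted p = 0.43). Begain, Ascl2 and Zim2 were also lower, by 0.12 or less, with overlapping groups.

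Genes around Igf2 in its pathway showed a similar split between list and single genes. Among the 20 tested, the mutant mean was higher for 17 and lower for 3, and 66.4% of all genes tested were higher. The median difference was 0.27, and none passed an adjusted limma p of 0.05 (background 0.0278%). An unadjusted limma p under 0.05 in the higher direction was found for 7 of the 20, against 12.1% of all genes tested. Igfbp7, a secreted binding protein, was at 63.7, 80.8 and 59.1 TPM in controls and 110, 106 and 88.8 TPM in mutants (0.58), without overlap. Igfbp3 (8.35 ± 1.20 and 11.9 ± 1.70 TPM, 0.46), Igfbp6 (27.4 ± 2.59 and 33.3 ± 0.79 TPM, 0.28) and the RNA-binding protein gene Igf2bp1 (13.3 ± 0.47 and 15.5 ± 0.03 TPM, 0.21) did not overlap either, which makes 4 of 20 genes against 14.5% of all genes tested (SD, n = 3; limma adjusted p of 0.29 to 0.30 for these 4 genes). Igf2bp3 and Igfbp5 were among the lower genes, at -0.18 and -0.02, with overlapping groups. Igfbp1 was listed at 0 in every library.

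The growth factor and its receptors did not separate the groups. Igf1 was at 12.7, 17.5 and 11.7 TPM in controls and 16.5, 23.4 and 17.3 TPM in mutants, again highest in replicate 2 of each group (0.43, limma adjusted p = 0.31). The signalling receptor Igf1r was at 17.8 ± 1.17 and 21.8 ± 2.74 TPM (0.27, limma adjusted p = 0.31). Igf2r, which removes IGF2 from the cell surface and is itself imprinted, was at 17.9 ± 1.72 and 20.2 ± 1.73 TPM (0.16, limma adjusted p = 0.44), and Insr at 10.5 ± 1.56 and 15.3 ± 3.61 TPM (0.49, limma adjusted p = 0.30; SD, n = 3).

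Factors that set or keep imprints were mixed. Among the 11 tested, the mutant mean was higher for 5 and lower for 6, against 66.4% of all genes tested that were higher. The median difference was -0.01. None passed an adjusted p of 0.05 (background 0.0278%). Uhrf1, which brings the maintenance DNA methyltransferase to replicated DNA, was at 22.7, 19.5 and 20.0 TPM in controls and 15.8, 15.7 and 15.9 TPM in mutants, lower in every mutant (-0.37, limma adjusted p = 0.29). Ctcfl, a germ cell relative of CTCF, was also below in every mutant (3.67 ± 0.26 and 3.06 ± 0.28 TPM, SD, n = 3; -0.20, limma adjusted p = 0.37). Arid4a was the only factor of the list with every mutant above every control (7.05 ± 0.74 and 9.12 ± 0.76 TPM, SD, n = 3; 0.33, limma adjusted p = 0.29). Every mutant was thus below every control in 2 of 11 factors, against 5.77% of all genes tested, and above in 1 of 11, against 14.5%. Zfp57, which binds methylated imprint control regions, was at 2.34 ± 0.38 and 2.02 ± 0.18 TPM (SD, n = 3) with overlapping groups.

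Genes whose pattern over the 6 libraries was most like that of each imprinted gene were found as those with the smallest root mean square difference of centred log2(TPM + 1), among 9563 named genes of at least 5 TPM. They were Nudt19 for H19 (0.080), Plxnd1 for Igf2 (0.041), Suds3 for Dlk1 (0.071), Rps6ka3 for Meg3 (0.025), Elmo1 for Rian (0.024), Oga for Mirg (0.017), Fads1 for Peg3 (0.037), Gusb for Plagl1 (0.079), Flcn for Cdkn1c (0.028) and Vapa for Grb10 (0.028). The nearest of the 10 imprinted genes was further away in every case, which the far larger number of candidates made likely beforehand. By rank, the closest was Igf2 for its neighbour H19, the 6th of all candidates at 0.114. This did not hold in reverse, since the nearest imprinted gene for Igf2 was Peg3, ranked 206th at 0.101. For the other genes, the nearest imprinted gene ranked from 27th for Plagl1 to 1092nd for Meg3 and 1703rd for Grb10. Rian and Peg3, on different chromosomes, were at 0.090 from each other, and Mirg and Cdkn1c at 0.058. These are descriptions over 6 libraries that share their scaling.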

How the data were processed

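Gene and isoform TPM estimates of 6 libraries were used as deposited by the authors; the libraries were made from rRNA-depleted total RNA with a stranded kit, per the labels' protocols. The submitters' processing notes name HISAT2 and the build GRCm38. How TPM were estimated, and with which annotation, is not given in the sources used here, so TPM of overlapping transcripts (Igf2 with its antisense Igf2os and the read-through gene Gm49394) may be shared. The authors' deposited table gives log2 fold changes by an unstated method, used for description only.

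limma 3.58.1 (R 4.3.3) was fitted to genes of at least 1 TPM on average, on log2(TPM + 1), with trend, two-sided, adjusted by Benjamini-Hochberg over all genes. Differences on this scale understate changes of low genes. Isoforms were fitted in the same way. Shares were fitted as log2 of isoform over other isoforms, each plus 0.1 TPM, where the gene reached 5 TPM and the isoform took 5% to 95% of it. Ratios between genes used the same 0.1 TPM. Scripts were tested on simulated data.

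GENCODE M21 matched 53388 gene symbols and 141429 of 142647 isoforms. The 10 genes and all lists were chosen with earlier results of these data known. Of each other list, up to 4 genes per direction were named by p-value, plus Igf1, Igf1r, Igf2r and Insr; Rtl1, Dio3, B830012L14Rik, the isoforms beyond the largest and the smallest p per gene, and the 5 genes called were named after their values were seen. A gene of these lists is not reported here. Alternatives were other pseudocounts and filters, both scalings, no trend, a replicate block and each library left out. Python 3.11.15, SciPy 1.17.1 and matplotlib 3.10.9 were used.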

Additional observations from a re-analysis of the deposited data

How the results depend on the processing

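None of the 10 genes passed an adjusted limma p of 0.05 under any alternative run, and their differences stayed positive in all of them except that of H19, which was -0.0071 without control 1 (and 0.44 without control 2). Mirg gave no value with the 5 TPM filter. The number of the 10 with every mutant above every control was 1 under median-ratio scaling, 1 under protein-coding scaling and 8 without replicate 2 of both groups, and 3 to 8 with a library left out; the cause was not tested. With a library left out, 9 to 10 genes were higher in mutants and their median was 0.15 to 0.39. The log2 ratios ranged from -0.14 to 0.03 for H19 over Igf2 (0.033 without control 2), from -0.20 to 0.01 for Meg3 over Dlk1 (0.013 without mutant 2), from -0.01 to 0.22 for Rian over Meg3 (-0.0057 without control 3) and from 0.01 to 0.17 for Mirg over Meg3, which was 0.0035 with a pseudocount of 1 TPM against 0.08 with 0.1 TPM.

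Counts over all genes were small and moved readily. Genes called higher numbered 1, and 3 with a pseudocount of 0.1 TPM, 3 without replicate 2 of both groups and 0 with no filter, either scaling, no trend or the replicate block. Genes called lower numbered 4, and 2 with a filter of 5 TPM and 0 with no filter, the replicate block or without replicate 2 of both groups. Isoforms called higher numbered 2 (6 with the pseudocount of 0.1 TPM, 5 with the 5 TPM filter, 0 with the block) and lower 4 (1 with the 5 TPM filter, 0 with the block). Shares called higher numbered 1 (2 with a pseudocount of 0.5 TPM, 2 for genes of at least 10 TPM, 0 with the block) and lower 3 (0 with the block). With a library left out the ranges were 0 to 5 and 2 to 7 for genes, 2 to 7 and 1 to 8 for isoforms, and 0 to 3 and 1 to 7 for shares. Replicate numbers were not taken as pairs in the main fit. Deviations of same-numbered control and mutant libraries correlated across genes at -0.07, 0.03 and 0.08, and those of differently numbered libraries at -0.16 to 0.12. With 3 libraries in a group, these values cannot show whether animals were paired.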
